A study of Mus musculus with 6 samples.

Results

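The genes described here are the cytosolic ribosomal proteins, the protein parts of the small (40S) and large (60S) subunits of the ribosome in the cytoplasm, together with a few symbols that share their naming pattern. Members were picked by a rule on names, although the family itself was chosen with earlier results of these data known. The rule took symbols that start with Rps or Rpl followed by a digit, Rplp followed by a digit, or Rpsa. It left out the Rps6k kinases and names with -ps. The rule found 55 of the 10245 genes in the expression table. Of these, 49 are canonical ribosomal proteins, 19 of the 40S and 30 of the 60S subunit. A further 4 are paralogs, close copies of a canonical gene (Rpl22l1, Rpl7l1, Rpl36al and Rps27l). Rps4y2 is now named Rps4l in RefSeq and classed there as a transcribed pseudogene. Rps19bp1 encodes a protein that binds a ribosomal protein and is not one itself. The full canonical list fixed for the work has 79 genes, and 29 of them, Rpsa, Rps2 and Rpl3 among them, are not analysed here. The remaining canonical gene, Fau, encodes a 40S protein fused to a ubiquitin-like protein and falls outside the naming rule.

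RNA was sequenced from whole mouse pancreas, 3 control and 3 Ptf1a cKO animals. Control mice were Ptf1a(CreER/+) and Ptf1a cKO mice Ptf1a(CreER/fl), and all were given tamoxifen by gavage at 0.25 mg/g on 3 days and killed at day 14. The comparison asks how the adult pancreas responds when PTF1A, the transcription factor that maintains acinar identity, is deleted. Cre was expressed from the Ptf1a locus, so deletion was directed to acinar cells, and the CreER allele itself makes no PTF1A, which leaves the controls heterozygous. The study also lists a Rosa26 EYFP reporter allele for both genotypes. Control mice were 4 months and Ptf1a cKO mice 5 months old, so age and genotype cannot be told apart.

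Ptf1a, the deleted gene, measured 606 ± 42.9 normalized counts in controls and 33.4 ± 32.1 in Ptf1a cKO (mean ± SD, n = 3), a log2 fold change of -4.41. Normalized gene totals ran from 17949889 to 21175836 in controls and from 5527104 to 8981107 in Ptf1a cKO. Between 74.4 and 81.1% of all values per library stood in the row for alignments to more than 1 place, 74.4 to 76.2% in controls and 77.3 to 81.1% in Ptf1a cKO, and the part of this difference in the results was not tested. In 2 control libraries the sex-linked transcripts went against the label. Control 1, labelled male, held 1726 normalized counts of Xist and 1.74 of Ddx3y, and control 3, labelled female, held 93.6 of Xist and 86.2 of Ddx3y. Both were kept in the control group, and the main counts are also given without them.

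Each ribosome needs 1 copy of nearly every ribosomal protein, so cells make these proteins in matched amounts. Their mRNAs are among the most abundant in most cells and usually begin with a C followed by a run of pyrimidines, the 5′ terminal oligopyrimidine (TOP) tract, through which mTORC1 signalling and the cap-binding protein LARP1 set their translation. Pancreatic acinar cells, which secrete large amounts of digestive enzymes, are rich in ribosomes.

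The start of the transcript carries this shared element, so the bases around the annotated start are shown for the 8 members whose tract begins at the first transcribed base (+1), and for the paralog pair Rpl22 and Rpl22l1, whose tracts begin further in. Each line runs 5′ to 3′ on the gene's strand from 10 bases before to 20 bases after the start, and capitals mark the tract, here a C followed by 4 or more of C or T. Sequences and positions are RefSeq's for GRCm38.p6, a later build than the mm9 used for the counts.
Rps6 (chr4:86857348-86857377, minus strand): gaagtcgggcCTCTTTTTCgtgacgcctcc
Rps10 (chr17:27635225-27635254, minus strand): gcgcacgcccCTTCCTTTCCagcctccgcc
Rps15a (chr7:118116128-118116157, minus strand): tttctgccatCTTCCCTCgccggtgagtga
Rps21 (chr2:180257369-180257398, plus strand): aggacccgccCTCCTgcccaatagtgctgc
Rpl14 (chr9:120571507-120571536, plus strand): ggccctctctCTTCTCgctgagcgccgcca
Rpl15 (chr14:18270967-18270996, minus strand): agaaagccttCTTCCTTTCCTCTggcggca
Rpl35a (chr16:33056472-33056501, plus strand): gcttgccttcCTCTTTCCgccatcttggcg
Rplp2 (chr7:141447641-141447670, plus strand): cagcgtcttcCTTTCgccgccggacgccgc
Rpl22 (chr4:152324426-152324455, plus strand): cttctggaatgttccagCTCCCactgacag
Rpl22l1 (chr3:28805498-28805527, plus strand): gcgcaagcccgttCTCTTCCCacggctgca

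Of the 55 members, 41 had an entry in the promoter table, 36 of them canonical. A tract began at +1 in 8 of those 36 (22.2%), in 3.01% of the 27025 genes of the promoter table, in 0 of 62 mitochondrial ribosomal proteins and in 0 of 30 proteasome subunits. Within 10 bases of +1, where an annotated start that is off by a few bases would still count, the shares were 63.9% of canonical members and 34.4% of all genes. A match says only that these letters stand at the annotated start.

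In the Ptf1a cKO pancreas, mRNAs for cytosolic ribosomal proteins of both subunits were lower than in controls relative to most other genes. Of the 55 members, 30 fell (54.5%) and 0 rose at an adjusted p under 0.05, against 16.8% of all 10245 genes lower and 17.1% higher (limma, Benjamini-Hochberg over all genes). At an unadjusted p under 0.05, 36 were lower and 0 higher, and the share of all genes at that threshold was not taken. The estimate was below 0 for 52 members, and the median log2 fold change was -0.46, against 0.036 for all genes. All 3 Ptf1a cKO values stood under all 3 control values for 36 members, an order that 24.3% of all genes showed, and the opposite order was seen for 0 members and 26.5% of all genes. A fall of at least 1.5-fold that passed the test was seen for 21 members (11.4% of all genes), and of at least 2-fold for 1, Rpl32.

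Summed over the 55 symbols, members came to 48607, 50034 and 54411 normalized counts in the 3 controls, and in Ptf1a cKO to 40354, 36657 and 28965. The groups did not overlap, with means of 51018 ± 3024 and 35325 ± 5810 (SD, n = 3). The fall differed in depth between cKO animals. The median member's log2 difference from the control mean was -0.25 in cKO 1, -0.43 in cKO 2 and -0.74 in cKO 3, while the controls lay at -0.046, -0.017 and 0.088. Of the 55 members, 46 had their lowest value of all 6 libraries in cKO 3 and 33 their highest in control 3. The median coefficient of variation of a member was 8.90% in controls and 17.0% in Ptf1a cKO, against 12.2 and 12.3% for all genes.

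**Figure D1:**
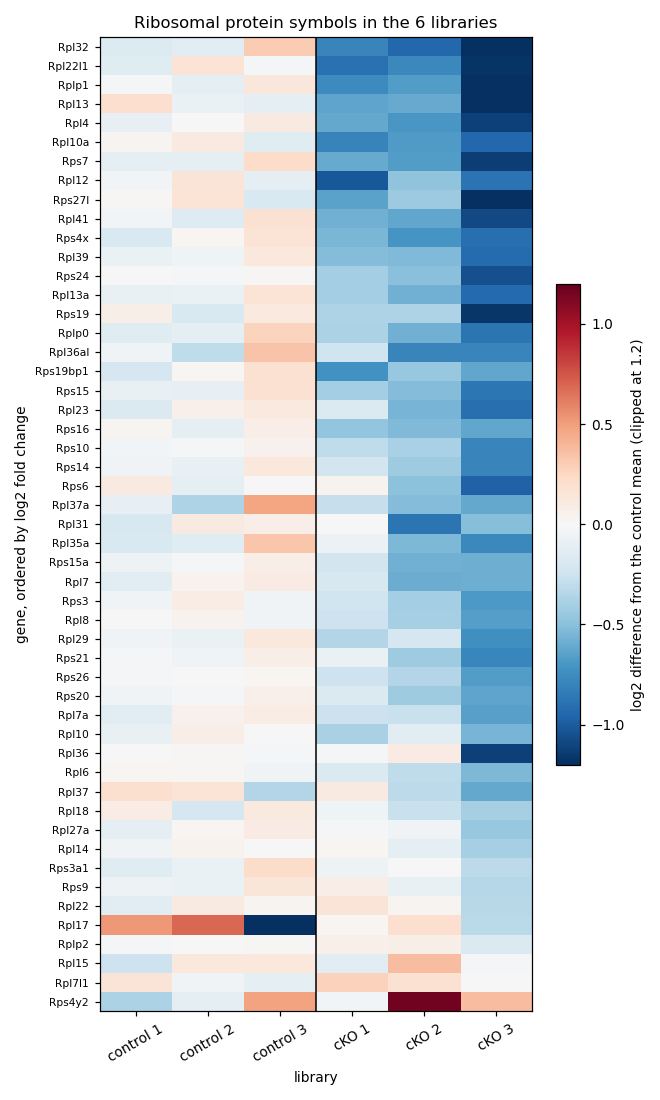
Each row is 1 of 51 of the 55 symbols, ordered by log2 fold change, and each column 1 library. Colour gives the log2 difference from the mean of the 3 controls, blue for lower and red for higher, clipped at 1.2. Blue is deepest in the cKO 3 column, and 46 of the 55 symbols are lowest in cKO 3.

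How many members passed the test depended on single libraries. Leaving out control 1, control 2 or control 3 left 15, 17 and 17 members lower (27.3, 30.9 and 30.9%), where 11.7, 11.5 and 15.4% of all genes were lower. Leaving out cKO 3 left 18 (32.7%, against 12.3% of all genes), with the median at -0.35. Without cKO 1 the count was 32 (58.2%, against 13.0%) and the median -0.59. Without cKO 2 it was 26 (47.3%, against 17.1%). In all 6 of these fits 14 of the 30 members remained lower, and in each fit 0 members were higher. With both controls whose sex-linked transcripts went against their labels left out, 1 member was lower (1.82%), which is not above the 3.58% of all genes that were lower in that fit, 367 in place of 1724. There 53 members were below 0 and the median was -0.44. That fit has a single control, assumed to vary like the other libraries.

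The deposited values had been scaled between libraries by the authors, and the direction of the family depended on that scaling. Setting every library to the same gene total moved the median of all genes to 1.49, with 93.6% of genes higher and 1.26% lower, and the median of the ribosomal proteins to 0.99, with 50 higher and 0 lower. Relative to all genes the family was then at -0.49 on the log2 scale. Setting the libraries to the same total after leaving out 14 acinar enzyme genes put all genes at 0.61 and the family at 0.12, with 11 of 55 members higher, against 65.2% of all genes, and 2 lower (3.64%, against 4.64%). The same 75th percentile gave -0.42 with 23 lower (41.8%, against 15.2% of all genes) and median of ratios -0.49 with 30 lower (54.5%, against 17.8%). Under these 5 scalings the family's median minus that of all genes was -0.50 to -0.49. A scaling moves all genes of a library together, so this difference could hardly change and is no test of the fall. Changes below are given on the authors' scale unless stated.

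**Figure D2:**
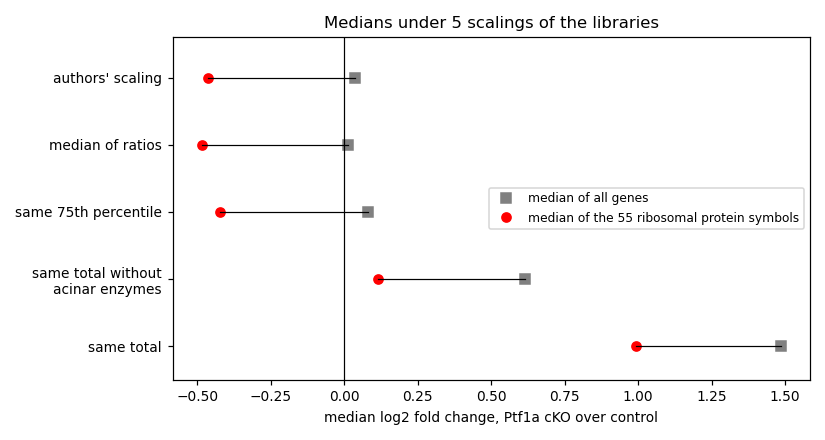
Median log2 fold change of Ptf1a cKO over control for all 10245 genes (grey squares) and for the 55 ribosomal protein symbols (red circles) under 5 scalings of the libraries. Both medians move together, from -0.46 and 0.036 under the authors' scaling to 0.99 and 1.49 at the same total. The red circle minus the grey square is -0.50 to -0.49 in each row. A scaling moves all genes of a library together, so this difference can hardly change.

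The enzymes that set those totals changed far more than the ribosomal proteins. The summed level of the 14 acinar enzymes ran from 11916900 to 14871000 normalized counts in controls and from 1678690 to 4768900 in Ptf1a cKO, with 10 of 14 genes lower. As a share of all gene counts, the members took 0.230, 0.238 and 0.303% in controls and 0.564, 0.408 and 0.524% in Ptf1a cKO. With the enzymes left out of the denominator, the shares were 0.771, 0.788 and 0.902% in controls and 0.936, 0.870 and 0.753% in Ptf1a cKO, and the groups overlapped. In bulk tissue, fewer cells of a type and less RNA per cell cannot be told apart.

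Markers of other cells moved with genotype as well. Summed duct markers (5 of 6 in the table, 2 higher) ran from 1854 to 2621 normalized counts in controls and from 22194 to 106392 in Ptf1a cKO, although Krt19, the defining one, gave a log2 fold change of -0.012 (adjusted p = 0.966). Leukocyte markers (7 of 10 in the table, 6 higher) ran from 620 to 1191 and from 1403 to 4693, with the defining Ptprc at an adjusted p of 0.0772. Fibroblast and stellate markers (8 of 8 in the table, 7 higher, Col1a1 among them) ran from 2945 to 3390 and from 5807 to 10342, and proliferation markers (4 of 6 in the table, 2 higher, Mki67 among them) from 66.1 to 148 and from 125 to 578. Of 4 endocrine and 3 endothelial markers, 0 passed the test in limma, also at an unadjusted p under 0.05. The endocrine sum ran from 9707 to 37415 in controls, highest in control 3, and from 5012 to 28478 in Ptf1a cKO, and the endothelial sum from 469 to 623 and from 452 to 559. cKO 3, lowest for the ribosomal proteins, had the lowest enzyme sum and the highest duct and leukocyte sums, but cKO 1, nearest to the controls for the ribosomal proteins, had a lower enzyme sum (2843520) than cKO 2 (4768900). The part of these cells in the fall of the ribosomal proteins was not tested.

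Among the 19 proteins of the 40S subunit, 12 fell (63.2%, against 16.8% of all genes), 0 rose and the median log2 fold change was -0.48. Every estimate was below 0, and for 15 of 19 all cKO values stood under all controls (24.3% of all genes).

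Rps7, which also binds the p53 regulator MDM2, measured 285, 285 and 358 in controls and 202, 192 and 139 in Ptf1a cKO. It fell by 0.80 on the log2 scale (SE 0.16, adjusted p = 0.0061), and the groups were apart. Rps4x, encoded on the X chromosome, measured 609, 702 and 777 in controls and 473, 422 and 367 in Ptf1a cKO. It fell by 0.72, without overlap (SE 0.14, adjusted p = 0.0042). Rps16, whose tail reaches the decoding region of the small subunit, measured 176, 160 and 183 in controls and 123, 119 and 110 in Ptf1a cKO. It fell by 0.54, less than Rps7 and Rps4x, but its groups were tight (SD 11.8 and 6.45 normalized counts) and it passed the test (SE 0.11, adjusted p = 0.0070).

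Of the other 40S proteins, Rps24, Rps19, Rps15, Rps14, Rps15a, Rps3, Rps26 and Rps20 fell by 0.41 to 0.65 on the log2 scale, with adjusted p between 0.0160 and 0.0468. Rps19 is the gene most often mutated in Diamond-Blackfan anaemia, and Rps3 forms part of the mRNA entry site. Rps15 remained lower in each of the 6 fits that left out a library. Rps6, the substrate of S6 kinase, was among the members with the fewest assigned counts, at 35.8, 30.4 and 33.2 in controls and 34.1, 22.5 and 15.2 in Ptf1a cKO. Its cKO values spread widely, from within the control range to well under it, and the change of -0.48 did not pass the test (adjusted p = 0.247). Rps3a1 and Rps9 both gave estimates of -0.12, with overlapping groups and adjusted p of 0.513 and 0.541.

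**Figure D3:**
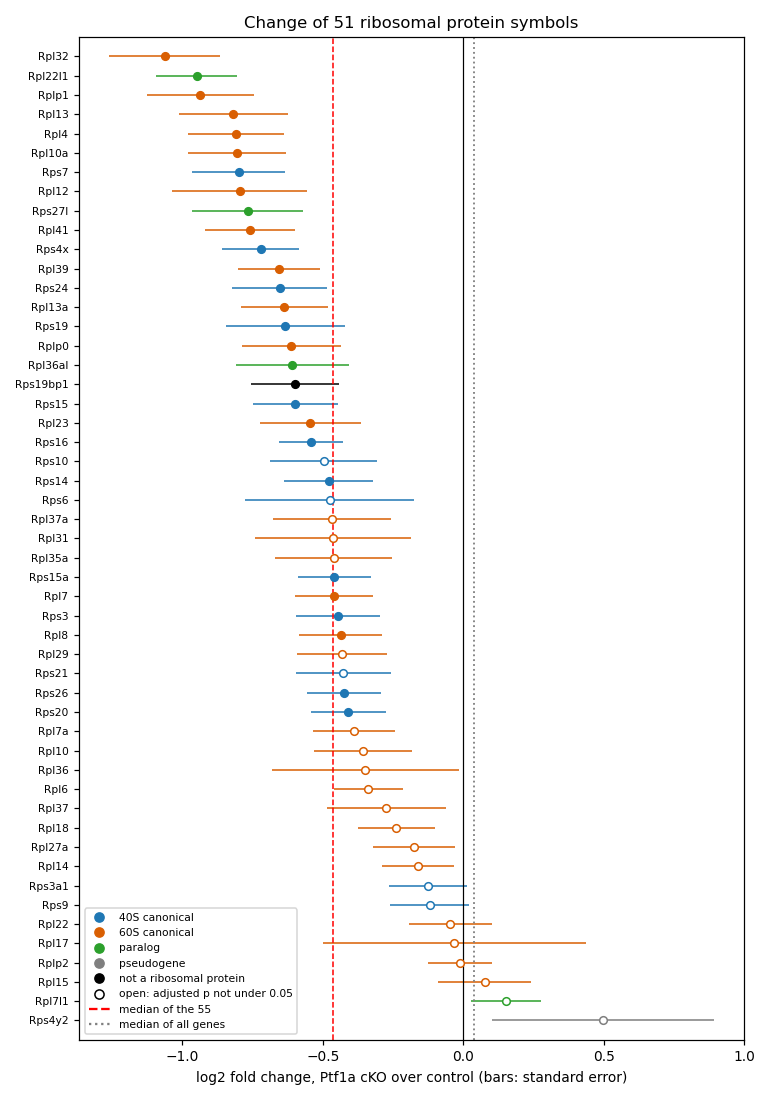
Log2 fold change of Ptf1a cKO over control for 51 of the 55 symbols on the authors' scale, with the standard error as bars, coloured by subunit or class, filled where the adjusted p is under 0.05. The dashed line marks the median of all 55 (-0.46) and the dotted line that of all genes (0.036). Symbols run from Rpl32 (-1.06) to Rps4y2 (0.50), and 3 of them lie above 0.

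Among the 30 proteins of the 60S subunit, 14 fell (46.7%, against 16.8% of all genes), 0 rose and the median was -0.46, with 29 estimates below 0. The subunits moved alike within each library: the median 60S deviation from the control mean minus the median 40S deviation was -0.019, 0.057 and 0.011 in controls and -0.020, -0.074 and 0.079 in Ptf1a cKO, so the groups overlapped.

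Rpl32, which had the deepest fall of the family, measured 1795, 1834 and 2497 normalized counts in controls and 1164, 1049 and 734 in Ptf1a cKO. Every cKO library lay far under the lowest control, and it fell by 1.06 on the log2 scale (SE 0.20, adjusted p = 0.0037). Rpl4, whose extension lines the tunnel through which the new protein leaves, was one of the most abundant members at 6788, 7224 and 7818 in controls and 4748, 4487 and 3338 in Ptf1a cKO. It fell by 0.81 (SE 0.17, adjusted p = 0.0068). Rpl39, another protein of the exit tunnel, measured 147, 150 and 171 in controls and 108, 107 and 80.3 in Ptf1a cKO. It fell by 0.66 (SE 0.15, adjusted p = 0.0087). Both tunnel proteins were lower in every cKO library than in any control.

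Rpl10a, the protein of the mobile L1 stalk beside the exit site for tRNA, measured 63.7, 67.4 and 55.9 in controls and 34.3, 37.6 and 30.7 in Ptf1a cKO. It fell by 0.81 (SE 0.17, adjusted p = 0.0075). Rpl41, the shortest protein of the ribosome, measured 969, 892 and 1125 in controls and 664, 644 and 466 in Ptf1a cKO. It fell by 0.76 (SE 0.16, adjusted p = 0.0069). Neither had a cKO value within its control range.

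Rpl13a, Rpl13, Rpl12, Rpl23, Rpl7 and Rpl8 fell as well, by 0.44 to 0.82, with adjusted p between 0.0113 and 0.0476. Rpl8 sits near the peptidyl transferase centre. Its level per kb of whole transcript was the highest of all members (5256 normalized counts), uncorrected for sequence shared with other genes. Rpl8 measured 5135, 5269 and 4988 in controls and 4309, 3895 and 3239 in Ptf1a cKO. It fell by 0.44, near the family's median, and just passed the test (SE 0.15, adjusted p = 0.0476). Of the 60S proteins that did not pass, Rpl29, Rpl7a, Rpl10 and Rpl6 had groups that did not overlap, with estimates from -0.43 to -0.34 and adjusted p from 0.0592 to 0.143. Rpl17 was erratic, at 43.9, 49.8 and 10.8 in controls and 30.1, 34.4 and 23.0 in Ptf1a cKO, so its estimate of -0.032 has an SE of 0.47. Rpl36 rested on 1 library as well, at 34.0 and 37.2 in cKO 1 and cKO 2, close to the 3 controls, and 14.0 in cKO 3. Rpl15 was the canonical protein with the highest estimate, 0.076 (adjusted p = 0.749).

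The stalk of the large subunit, which recruits the translation factors, is built from Rplp0 at its base and copies of Rplp1 and Rplp2. Rplp1 measured 3291, 3101 and 3678 normalized counts in controls and 1970, 2108 and 1286 in Ptf1a cKO. It fell by 0.94 on the log2 scale (SE 0.19, adjusted p = 0.0059), with no overlap. Rplp0 measured 3677, 3760 and 4904 in controls and 3124, 2738 and 2218 in Ptf1a cKO. It fell by 0.61 (SE 0.18, adjusted p = 0.0253). Rplp2 measured 232, 235 and 236 in controls and 245, 247 and 207 in Ptf1a cKO. Its groups overlapped and its estimate was -0.012 (SE 0.11, adjusted p = 0.944).

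The log2 ratio of Rplp1 to Rplp2, which scaling hardly touches, was 3.81, 3.70 and 3.94 in controls and 2.99, 3.08 and 2.61 in Ptf1a cKO, a difference of -0.92. The ratio of Rplp2 to Rplp0 was 0.60 higher in Ptf1a cKO. For both, the groups did not overlap, and the exact permutation test gave p = 0.10 (two-sided), the smallest p that 3 against 3 animals allow. The ratio of Rplp1 to Rplp0 differed by -0.32 (exact p = 0.20). The 3 stalk ratios were chosen after the values were seen. Over these and the 2 paralog ratios below, 5 in all, the adjusted p of the 4 smallest was 0.125 (exact permutation tests, Benjamini-Hochberg), so none passed.

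Paralogs can stand in for the canonical protein in some ribosomes, and Rpl22, an RNA-binding 60S protein, is known to hold down the mRNA of its paralog Rpl22l1. Rpl22l1 measured 165, 205 and 181 normalized counts in controls and 96.5, 105 and 79.1 in Ptf1a cKO. It fell by 0.95 on the log2 scale (SE 0.14) and had the lowest adjusted p of the family (0.0015). Rpl22 measured 760, 903 and 854 in controls and 932, 858 and 664 in Ptf1a cKO. Its groups overlapped, with an estimate of -0.047 (SE 0.15, adjusted p = 0.828). Both start windows are shown above, with the tract at position 8 of Rpl22 and 4 of Rpl22l1.

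The log2 ratio of Rpl22l1 to Rpl22 was -2.17 ± 0.047 in controls and -3.08 ± 0.13 in Ptf1a cKO (SD, n = 3), a difference of -0.90 with no overlap (exact permutation p = 0.10, the smallest possible). The other pair in the table went the opposite way. Rpl7 measured 641, 722 and 750 in controls and 613, 465 and 466 in Ptf1a cKO. It fell by 0.46 (SE 0.14, adjusted p = 0.0316). Its paralog Rpl7l1 measured 392, 342 and 326 in controls and 428, 401 and 351 in Ptf1a cKO. These groups overlapped, and the estimate of 0.15 did not pass the test (SE 0.12, adjusted p = 0.372). The log2 ratio of Rpl7l1 to Rpl7 rose in value from -0.99 ± 0.25 to -0.38 ± 0.15, a difference of 0.61 (SD, n = 3, exact permutation p = 0.10). Rps27l and Rpl36al fell by 0.77 and 0.61 (adjusted p = 0.0166 and 0.0432), and their canonical partners are not analysed here. Rpl36al is the 1 member that passed the test with overlapping groups.

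Of the symbols that encode no ribosomal protein, Rps19bp1 measured 73.2, 86.1 and 96.3 normalized counts in controls and 49.7, 61.0 and 53.9 in Ptf1a cKO. The groups were apart, and it fell by 0.60 on the log2 scale (SE 0.16, adjusted p = 0.0177). The pseudogene Rps4y2 measured 12.9, 16.3 and 26.3 in controls and 17.3, 44.0 and 24.1 in Ptf1a cKO, overlapping and with an estimate of 0.50 that did not pass (SE 0.39, adjusted p = 0.355).

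Which members departed from the rest was measured after centring each library on the median of its canonical members. In this fit 1 of 55 members was lower and 0 higher, against 4.72 and 32.4% of all genes (limma). At an unadjusted p under 0.05, 3 were lower and 1 higher, and the share of all genes at that threshold was not taken. The member was Rpl32, at -0.66 from the family median (adjusted p = 0.0218). It did not pass in this fit without control 1, without control 3 or without cKO 3, nor with replicate number as a block. Rpl22l1 and Rplp1 followed at -0.55 and -0.54 (adjusted p = 0.0685 and 0.0722), and Rpl7l1 lay at 0.55 (adjusted p = 0.0573). In the centred values, 15 members had all cKO libraries under all controls (6.77% of all genes) and 7 the reverse (43.2% of all genes). They included Rpl18, Rps3a1, Rps9, Rpl22, Rplp2 and Rpl7l1. Standard errors in the centred fit lay near 0.24 for many members, at 0.242 for Rpl32, 0.243 for Rps9 and 0.239 for Rpl22. Rps9 and Rpl22 did not pass (limma, adjusted p = 0.365 and 0.236) although their centred groups were apart. Centred on the mean in place of the median, 3 members were lower and 4 higher (488 and 4632 of 10245 genes). The count of 1 therefore does not show that the members moved together.

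Ribosomal protein genes have many processed pseudogenes, and a read that fits several copies was not assigned to a gene. To show how far this reaches, each gene's transcript was divided into 50-base words, the length of the reads, and the share found in transcripts of no other gene was taken. The median share was 51.0% for the 49 canonical members (7.87 to 100%), 28.1% for the 29 canonical genes not analysed here and 100% for all genes, of which 2.43% had under 50%. Rpl10 had the lowest share at 7.87%, and Rps6 had 15.4%. A level per length can therefore understate members with many copies. Per kb of unique words Rplp1 stood at 12888 and Rpl8 at 5704, the reverse of their order per kb of whole transcript. Across the 55 members, the mean level per kb and the share of unique words had a Spearman correlation of 0.37, a description over genes that share their libraries. The log2 fold change and the share had one of 0.016. Of 24 members with under 50% unique words 11 fell (45.8%), with a median of -0.47. Of the other 31 members 19 fell (61.3%), with a median of -0.46, where 16.8% of all genes fell.

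**Figure D4:**
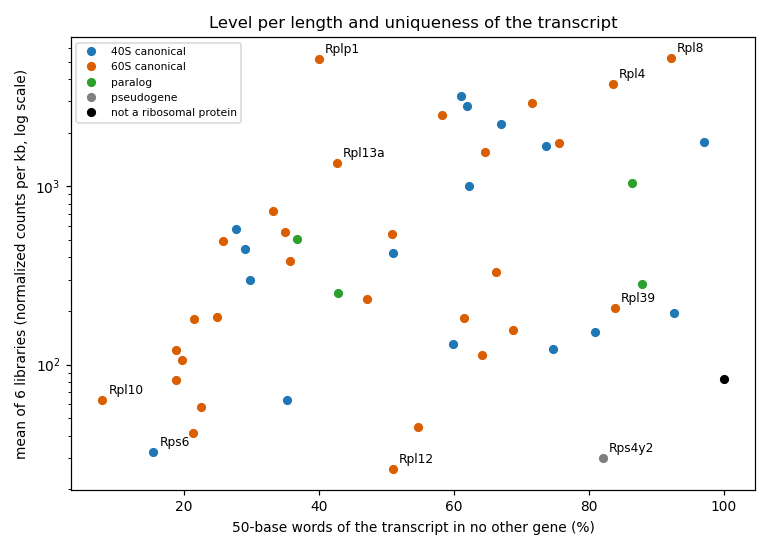
Mean level over the 6 libraries (normalized counts per kb of transcript, log axis) against the share of 50-base words of the transcript found in no other gene, for 51 of the 55 symbols coloured by class. Levels reach 5256 per kb for Rpl8, Rplp1 (5155 per kb) stands at a lower share than Rpl8, and Rpl10 has the lowest share, 7.87%.

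Members' transcripts were short, with a median of 789 bases against 2859 for all genes, and 41 of 55 were under 1 kb. Among the 768 other genes under 1 kb the median log2 fold change was -0.020 and 154 were lower (20.1%, against 16.8% of all genes). The 21 members that hold 39 small nucleolar RNA genes on the same strand had a median of -0.44, and the 34 without had -0.47. The 8 members with a tract at +1, shown above, had a median of -0.44 and 1 of them, Rps15a, fell (12.5%). Of the 33 with an entry but no tract at +1, 21 fell (63.6%), with a median of -0.60, where 16.8% of all genes fell. These 33 hold 17 with a tract that begins elsewhere within 10 bases of +1, of which 10 fell (58.8%, median -0.63). They also hold 16 with no such tract, of which 11 fell (68.75%, median -0.57). All cKO values stood under all controls for 3 of the 8 and 23 of the 33 (24.3% of all genes). The difference between these groups was not tested. The 55 members lie on 18 chromosomes, 11 of them on chromosome 7.

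Genes that make ribosomes were taken from lists for comparison. Of 41 measured genes for pre-rRNA processing and subunit assembly in the nucleolus, 23 fell (56.1%, against 16.8% of all genes) and 0 rose, with a median of -0.51. Rrs1, needed to bring 5S rRNA and its proteins into the large subunit, fell by 1.51 on the log2 scale (adjusted p = 0.000139), at 197, 223 and 249 normalized counts in controls and 84.5, 75.6 and 67.6 in Ptf1a cKO. Gnl3, the nucleolar GTPase nucleostemin, fell by 1.28 (adjusted p = 0.000704). Of 14 RNA polymerase I genes, 4 fell (28.6%) and 1 rose, with a median of -0.071. Polr1b, the second largest subunit, fell by 0.60 and Rrn3, the initiation factor, by 0.41. Of 7 chaperones of single ribosomal proteins, 2 fell (28.6%) and 0 rose: Rrs1 and Grwd1, at -0.70, with overlapping groups. Both Rrs1 and Grwd1 are also counted among the 41 processing and assembly genes. Of 8 hosts of small nucleolar RNAs, 0 fell and 0 rose by limma (1 was lower at an unadjusted p under 0.05), with a median of -0.22, and Snhg6 and Snhg1 came nearest at -0.52 and -0.50 (adjusted p = 0.0785 and 0.140).

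Of 17 other translation-machinery genes whose mRNAs are known to start with a TOP tract, 3 fell (17.6%) and 0 rose. That share is near the 16.8% of all genes, and the median was -0.32. All cKO values stood under all controls for 11 of the 17, an order that 24.3% of all genes showed. The estimate was below 0 for 16 of the 17 and for 4807 of all 10245 genes. Among the 17, Tpt1 fell by 0.76 and Naca by 0.44. Fau, the canonical gene outside the naming rule, gave -0.74 (adjusted p = 0.0659), with groups that did not overlap. Of 11 genes that signal to ribosome synthesis, 5 fell (45.5%, against 16.8% of all genes) and 0 rose, with a median of -0.20. Eif4ebp1, the mTORC1-controlled repressor of cap-dependent translation, measured 735, 737 and 778 in controls and 155, 260 and 140 in Ptf1a cKO, and fell by 2.05 (adjusted p = 0.000217). Larp1, which binds TOP tracts, measured 2997, 3037 and 3173 in controls and 979, 1312 and 879 in Ptf1a cKO, and fell by 1.56 (adjusted p = 0.000227). Myc, Rps6kb1 and Rptor also fell, by 1.67, 0.82 and 0.47, and are named after their values were seen. At the same gene total every one of these list medians was above 0, as for the ribosomal proteins themselves, and Larp1, Eif4ebp1 and Myc lay at -0.061, -0.57 and -0.21.

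A pair of other large complexes, each taken by naming pattern alone, served as comparators. Not every symbol of such a pattern need encode a subunit made in matched amounts. Of 71 mitochondrial ribosomal proteins, 10 fell (14.1%, under the 16.8% of all genes) and 3 rose (4.23%, against 17.1%), with a median of -0.22. All cKO values stood under all controls for 25 of the 71 (24.3% of all genes) and over them for 6 (26.5% of all genes). The estimate was below 0 for 52 of the 71 and for 4807 of all 10245 genes. Mrpl16 stood apart at 2.42 and Mrpl12 fell by 0.80. Of 36 proteasome subunits, 2 fell (Psmb10 by 2.03 and Psmd6 by 1.16) and 5 rose, which are 5.56 and 13.9% against 16.8 and 17.1% of all genes, with a median of 0.19. The cytosolic ribosomal proteins had a lower median than either, and the difference between the lists was not tested.

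**Figure D5:**
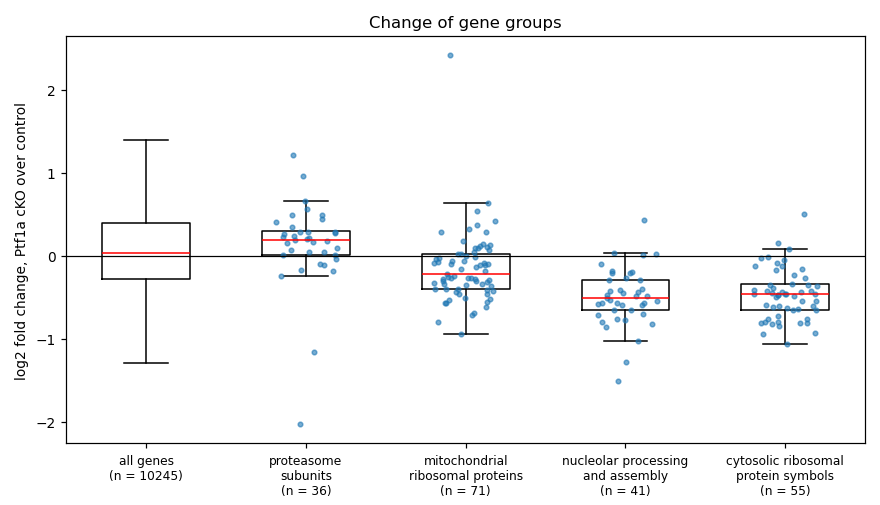
Log2 fold change of Ptf1a cKO over control on the authors' scale, for all genes, 36 proteasome subunits, 71 mitochondrial ribosomal proteins, 41 nucleolar processing and assembly genes and the 55 cytosolic ribosomal protein symbols. Boxes span the quartiles with the median in red, whiskers reach the farthest value within 1.5 box lengths, and each point is 1 gene, with no points drawn for all genes. Medians are 0.036, 0.19, -0.22, -0.51 and -0.46 in that order.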

How the data were processed

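RNA-seq reads of 50 bases were aligned by the authors to mm9, and the submitters' processing notes name TopHat2 2.0.4, Bowtie 0.12.7.0, SAMtools 0.1.18.0 and HTSeq 0.6.0. The deposited values are normalized read counts (a signal with decimals, from which whole reads could not be recovered), scaled between libraries by the authors, with edgeR's TMM per the study's methods. A count test was therefore replaced by limma 3.58.1 (R 4.3.3) with a mean-variance trend on log2(value / 13.6 + 0.25), where 13.6 is a constant that brings the mean gene total to that of CPM and the pseudocount equals 3.41 normalized counts. Fold changes of low genes are thus understated. All 10245 genes were fitted, tests were two-sided, and p-values were adjusted by Benjamini-Hochberg with a threshold of 0.05. The table holds no gene whose highest value is under 27.6, so low genes had been filtered out. The 3 rows that name no gene (75.7 to 82.6% of each library) were left out. Log2 ratios were compared by an exact permutation test. The limma step was tested on simulated data. The study's methods give each library's number of aligned reads, but the normalized values cannot be turned back into reads per gene, so no counting interval is given.

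The members and lists were chosen with earlier results of these data known. Values per library are given for members past the threshold (at most 12 per direction by adjusted p), those past it relative to the family median, paralog pairs, stalk proteins, the 3 highest per length, symbols encoding no ribosomal protein, and 2 genes per other list by adjusted p. A few members are not reported here by name and are left out of the plots by symbol, but counts and medians include them. Alternatives were other pseudocounts, filters, scalings and limma settings, labelled sex as a covariate, replicate number as a block, a threshold of 0.01 and leaving out each library. Transcripts are GENCODE vM21.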

Additional observations from a re-analysis of the deposited data

How the results depend on the processing

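Scaling moved the results most. At the same gene total 0 members were lower and 50 higher (90.9%, against 93.6% of all genes), and the median was 0.99. With all genes at a median of 1.49 there, these log2 fold changes turned positive: Rpl22l1 0.51, Rpl32 0.43, Rps4x 0.77, Rplp1 0.56, Rps7 0.68, Rpl4 0.69, Rpl41 0.73, Rps16 0.92, Rpl10a 0.59, Rpl39 0.80, Rpl22 1.44, Rpl7 1.03, Rplp0 0.88, Rplp2 1.47, Rpl8 1.06 and Rps19bp1 0.83. With acinar enzymes left out of that total, 2 were lower and 11 higher (4.64 and 65.2% of all genes were), the median was 0.12, and Rps16 (0.040), Rpl22 (0.55), Rpl7 (0.13), Rplp2 (0.58) and Rpl8 (0.16) turned positive, as did Rplp2 at the same 75th percentile (0.033). Raising or lowering every gene of a library together is how a scaling acts, and the members' median minus that of all genes stayed between -0.50 and -0.49 under these scalings.

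Other settings moved counts and not the direction of the median. The members lower numbered 12 at an adjusted p under 0.01 (9.39% of all genes), 23 of 36 tested with a mean of at least 10 after scaling (25.4%), 23 without trend (15.2%) and 24 with labelled sex as a covariate (16.3%). They numbered 15 to 32 without 1 library (11.5 to 17.1%), and 1 without both control 1 and control 3 (3.58%), a fit added after seeing the data. The median ran from -0.59 to -0.35 without 1 library. Relative to the family median, 0 to 1 were lower and 0 to 3 higher without 1 library, where 317 to 506 of all genes were lower and 1892 to 3962 higher. Centred on the mean in place of the median, 3 were lower and 4 higher, against 488 and 4632 of 10245 genes. Without 1 library or both controls, Rpl22 ran from -0.16 to 0.096, above 0 without control 2 (0.0078) and without cKO 3, and Rplp2 from -0.055 to 0.069, above 0 without cKO 3. Apart from the fits that leave out samples, the cause of these moves was not tested. The paralog differences ran from -0.95 to -0.83 for Rpl22l1 to Rpl22 and from 0.51 to 0.75 for Rpl7l1 to Rpl7.

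With replicate number as a block, 26 members were lower (30 without it, and 16.7% of all genes with it), and relative to the family median 0 were (374 of 10245 genes). Same-numbered libraries correlated at 0.039, 0.134 and 0.144 in their deviations from the group means, and cKO 1 correlated best with control 2, so the numbers were not taken as a pairing. With 3 animals a group, the exact tests of the log2 ratios cannot reach 0.05.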
